A study of Homo sapiens with 12 samples.

Results

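The genes described here are 10 genes of the unfolded protein response of the endoplasmic reticulum (ER): HSPA5, HSP90B1, CALR, SDF2L1, DNAJB9, HERPUD1, EDEM1, ERN1, ATF6 and XBP1. They were found by gene symbol among the 26334 genes counted in every library, and all 10 passed the filter on low counts, which left 15352 genes for testing. In both Cisplatin comparisons the most abundant ER chaperones, together with ATF6 and XBP1, were lower in the treated cells. Genes of the PERK branch and ATF4 targets, followed as a separate list, mostly rose with Cisplatin in control cells and were split in RNF113A-depleted cells. The list is named for its genes, and whether PERK or ATF4 was active was not tested.

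RNA was sequenced from A549 cells, a human lung adenocarcinoma line, after infection with a lentivirus carrying a short hairpin RNA and selection with puromycin. The hairpin was a control (shControl) or was directed against RNF113A (shRNF113A), a spliceosome-associated ubiquitin ligase. Each cell population was left untreated or was exposed to Cisplatin, which crosslinks DNA, at 25 µg/ml for 20 h in full growth medium according to the labels. The study's text gives its Cisplatin doses in micromolar units, so the unit of the dose is uncertain. The 4 groups, shControl untreated, shControl with Cisplatin, shRNF113A untreated and shRNF113A with Cisplatin, held 3 libraries each, 12 in all. Every group therefore carries a lentiviral hairpin and comes from the same tumour line, and a single RNF113A hairpin label is given. The study's methods call the replicates biological, but neither they nor the labels say whether they came from separate cultures or infections, so p-values measure the spread between these libraries.

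The ER folds secreted and membrane proteins, and when unfolded proteins accumulate in its lumen, 3 sensors in its membrane start the unfolded protein response. ATF6 moves to the Golgi, where it is cut to release a transcription factor. IRE1, the product of ERN1, removes a short intron from XBP1 mRNA so that an active transcription factor is made, and PERK phosphorylates the initiation factor eIF2 alpha, which lowers translation in general and favours that of ATF4. The factors released by ATF6 and IRE1 raise the genes of ER chaperones and of ER-associated degradation, the route by which misfolded proteins are exported and destroyed.

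In the annotation of the files (Gencode v19, hg19) the lumenal chaperone genes are HSPA5 (ENSG00000044574.7, chr9:127997132-128003609, minus strand), HSP90B1 (ENSG00000166598.8, chr12:104323885-104347423, plus strand), CALR (ENSG00000179218.9, chr19:13049392-13055303, plus strand), SDF2L1 (ENSG00000128228.4, chr22:21996550-21998587, plus strand) and DNAJB9 (ENSG00000128590.4, chr7:108210012-108215294, plus strand). The degradation genes are HERPUD1 (ENSG00000051108.10, chr16:56965960-56977798, plus strand) and EDEM1 (ENSG00000134109.6, chr3:5229331-5261642, plus strand). The sensors and the transcription factor are ERN1 (ENSG00000178607.11, chr17:62116502-62208179, minus strand), ATF6 (ENSG00000118217.5, chr1:161736084-161933860, plus strand) and XBP1 (ENSG00000100219.12, chr22:29190543-29196585, minus strand).

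ATF6 and XBP1 bind promoters through the ER stress response element (ERSE, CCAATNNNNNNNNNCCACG) or its shorter form (ERSE-II, ATTGGNCCACG). The promoter windows of the members, from 250 bases before to 50 bases after each RefSeq start site on GRCh38.p14, were searched on both strands for these letters and for the UPRE core TGACGTGG, and all 10 members were matched to a window. An ERSE was present in HSPA5, XBP1, HSP90B1 and CALR, 4 members, against 0.0769% of all 35116 windows. An ERSE-II was present in HERPUD1 and SDF2L1, 2 members, against 0.0541% of all windows. The members were chosen as known genes of the response that these elements serve, so these shares describe the list and are no test. The UPRE core was found in 0 member windows and in 0.729% of all windows, which says only that these letters are not in the windows searched. The elements are printed here because they separate the members into groups used later in the text. Capitals mark the element and lower case the 10 bases on each side, read along the gene, and an element that lies on the opposite strand therefore appears as its reverse complement.
HSPA5, ERSE, chr9:125241381-125241419, minus strand, bases -66 to -48 from the start site: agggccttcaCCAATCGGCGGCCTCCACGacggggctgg
XBP1, ERSE, chr22:28800593-28800631, minus strand, bases -52 to -34: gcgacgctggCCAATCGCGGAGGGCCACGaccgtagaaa
HSP90B1, ERSE, chr12:103930206-103930244, plus strand, bases -194 to -176: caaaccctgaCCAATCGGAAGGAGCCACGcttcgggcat
HSP90B1, ERSE on the opposite strand, chr12:103930311-103930349, bases -89 to -71: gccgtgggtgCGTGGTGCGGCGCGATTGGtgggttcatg
CALR, ERSE on the opposite strand, chr19:12938374-12938412, bases -225 to -207: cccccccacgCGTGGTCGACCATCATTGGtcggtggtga
HERPUD1, ERSE-II, chr16:56932015-56932045, plus strand, bases -117 to -107: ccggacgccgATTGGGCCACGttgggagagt
SDF2L1, ERSE-II on the opposite strand, chr22:21642104-21642134, bases -188 to -178: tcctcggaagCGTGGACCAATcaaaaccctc
HSP90B1 was the member with an element in both orientations. The windows of ERN1, ATF6, DNAJB9 and EDEM1 held neither ERSE nor ERSE-II. The shorter letters CCACG, which form the end of either element, stood in 9 member windows, with each window of XBP1 counted. They also stood in 38.1% of all windows, so they are far more common than the full elements.

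The libraries held 33859097 to 56071514 read pairs, and 26220526 to 45721152 of them fell in a gene on the sense strand. RNF113A itself had 20.3, 19.5 and 19.8 CPM (counts scaled to the library total, with TMM factors) in untreated shControl cells and 15.3, 15.8 and 16.8 CPM in untreated shRNF113A cells, a fall of 0.31 on the log2 scale (SE 0.09, edgeR quasi-likelihood test, Benjamini-Hochberg adjusted p = 0.0247). With Cisplatin it had 31.5, 28.9 and 27.7 CPM in shControl and 25.8, 24.3 and 29.9 CPM in shRNF113A cells, ranges that overlapped (adjusted p = 0.233). The epithelial markers KRT8 (1936 to 7450 CPM) and KRT18 (1402 to 6441 CPM) were abundant in every library, while EPCAM differed between the cell populations, with means of 10.3 ± 7.02 and 5.16 ± 2.60 CPM in untreated and treated shControl and 92.3 ± 6.18 and 46.4 ± 6.14 CPM in shRNF113A cells (SD, n = 3). The epithelial marker CDH1 went the other way. Its means were 162 ± 31.1 and 52.1 ± 3.77 CPM in untreated and treated shControl and 113 ± 19.4 and 40.7 ± 9.09 CPM in shRNF113A cells. The Cisplatin-treated ranges of CDH1 overlapped. The alveolar markers SFTPB and SFTPC were at 0.106 CPM or less and NKX2-1 at 0.0615 to 0.587 CPM. Of the 5 markers of other cell types, PTPRC, PECAM1, COL1A2 and DES stayed at 0.529 CPM or less, and COL1A1 had 3.32 to 34.9 CPM, the highest value being that of untreated shControl library 2. The summed epithelial markers were lower with Cisplatin (3399 to 5163 CPM against 7173 to 12925 CPM in shControl, 5301 to 5729 CPM against 12844 to 14113 CPM in shRNF113A cells), and the part of these marker differences in the results was not tested. In bulk RNA, fewer cells of a kind and less RNA per cell cannot be told apart.

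Replicate 2 of the shControl cells stood apart in both treatments: 12.5% (untreated) and 8.85% (Cisplatin) of 8445 genes lay at least 0.5 log2 units from the other libraries of its group, against at most 3.06% in any other library. Among the members it was high for XBP1, DNAJB9 and ERN1 and low for HERPUD1. Results that rest on these libraries are therefore given with and without them. The 5 comparisons share libraries (the untreated and treated groups each enter several), so their values are set side by side and are not independent of each other.

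Per kilobase of exon, the members spanned a wide range. In untreated shControl cells, RPKM (reads per kilobase of exon, scaled to the exonic total of the library) were 319 ± 53.9 (SD, n = 3) for HSP90B1, 299 ± 16.6 for CALR and 141 ± 11.4 for HSPA5, the lumenal chaperones. XBP1 followed with 58.4 ± 27.0 RPKM, then HERPUD1 with 27.4 ± 6.48 and SDF2L1 with 20.9 ± 1.75. The lowest were EDEM1 with 14.9 ± 2.29 RPKM, ATF6 with 8.20 ± 1.13, DNAJB9 with 7.97 ± 3.72 and ERN1 with 2.44 ± 0.663. HSP90B1 and CALR did not differ beyond their spread, and neither did ATF6 and DNAJB9, whereas HSPA5 lay below CALR and above XBP1 by more than the SDs. With Cisplatin the means of CALR (244 ± 8.39 RPKM in shControl, 269 ± 6.17 RPKM in shRNF113A cells) stood above those of HSP90B1 (179 ± 12.4 and 207 ± 4.12 RPKM), the reverse of the means in untreated cells of either kind.

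With Cisplatin in shControl cells, 4 of the 5 members that are chaperones of the ER lumen or their partners fell, all but DNAJB9. HSPA5 (BiP), the ER Hsp70 that also restrains the sensors, had 579, 600.0 and 546 CPM in untreated and 345, 421 and 353 CPM in treated cells. All 3 treated libraries lay below all 3 untreated libraries, and the fall was 0.62 on the log2 scale (SE 0.08, edgeR adjusted p = 5.36e-05), or 1.54-fold. Such separation of groups, here and below, describes single genes, and the share of all tested genes that show it is not given. HSP90B1 (GRP94), the ER member of the Hsp90 family, had 1040, 1184 and 916 CPM in untreated and 526, 573 and 540.1 CPM in treated cells. Its groups were apart as well, with a mean of 1047 ± 134 CPM (SD, n = 3) against 546 ± 24.3 CPM and a fall of 0.94 on the log2 scale (SE 0.09, edgeR adjusted p = 2.46e-06). CALR (calreticulin), a lectin chaperone for glycoproteins, had 579, 595 and 584 CPM against 453, 452 and 433 CPM. The fall was the smallest of these 4, 0.39 on the log2 scale, but so was the standard error (SE 0.06, edgeR adjusted p = 1.40e-04). SDF2L1, which acts with HSPA5 and its J-domain partners, was a low-count member with 17.9, 17.3 and 20.7 CPM against 13.4, 12.7 and 11.4 CPM. Its treated libraries again lay below every untreated library, and it fell by 0.58 on the log2 scale (SE 0.10, edgeR adjusted p = 4.45e-04).

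The same 4 genes fell with Cisplatin in shRNF113A cells. HSPA5 had 754, 698 and 715 CPM in untreated and 390.3, 377 and 359 CPM in treated cells, a fall of 0.94 on the log2 scale (SE 0.08, edgeR adjusted p = 1.54e-06), or 1.92-fold. The treated means of HSPA5 were 373 ± 41.8 CPM in shControl and 376 ± 15.8 CPM in shRNF113A cells (SD, n = 3), and the untreated means were 575 ± 27.3 and 722 ± 28.7 CPM. HSP90B1 had 1253, 1192 and 1212 CPM against 627, 625 and 621 CPM, which was a fall of 0.97 on the log2 scale (SE 0.09, edgeR adjusted p = 1.67e-06). The treated libraries of HSP90B1 were close to each other (SD 2.74 CPM, n = 3). CALR had 677, 684 and 697 CPM against 486, 466 and 502 CPM (log2 change -0.50, SE 0.06, edgeR adjusted p = 1.70e-05). SDF2L1 had 21.3, 24.2 and 24.0 CPM against 15.9, 15.4 and 17.4 CPM (log2 change -0.51, SE 0.10, edgeR adjusted p = 9.49e-04), again with no overlap between the groups.

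**Figure D1:**
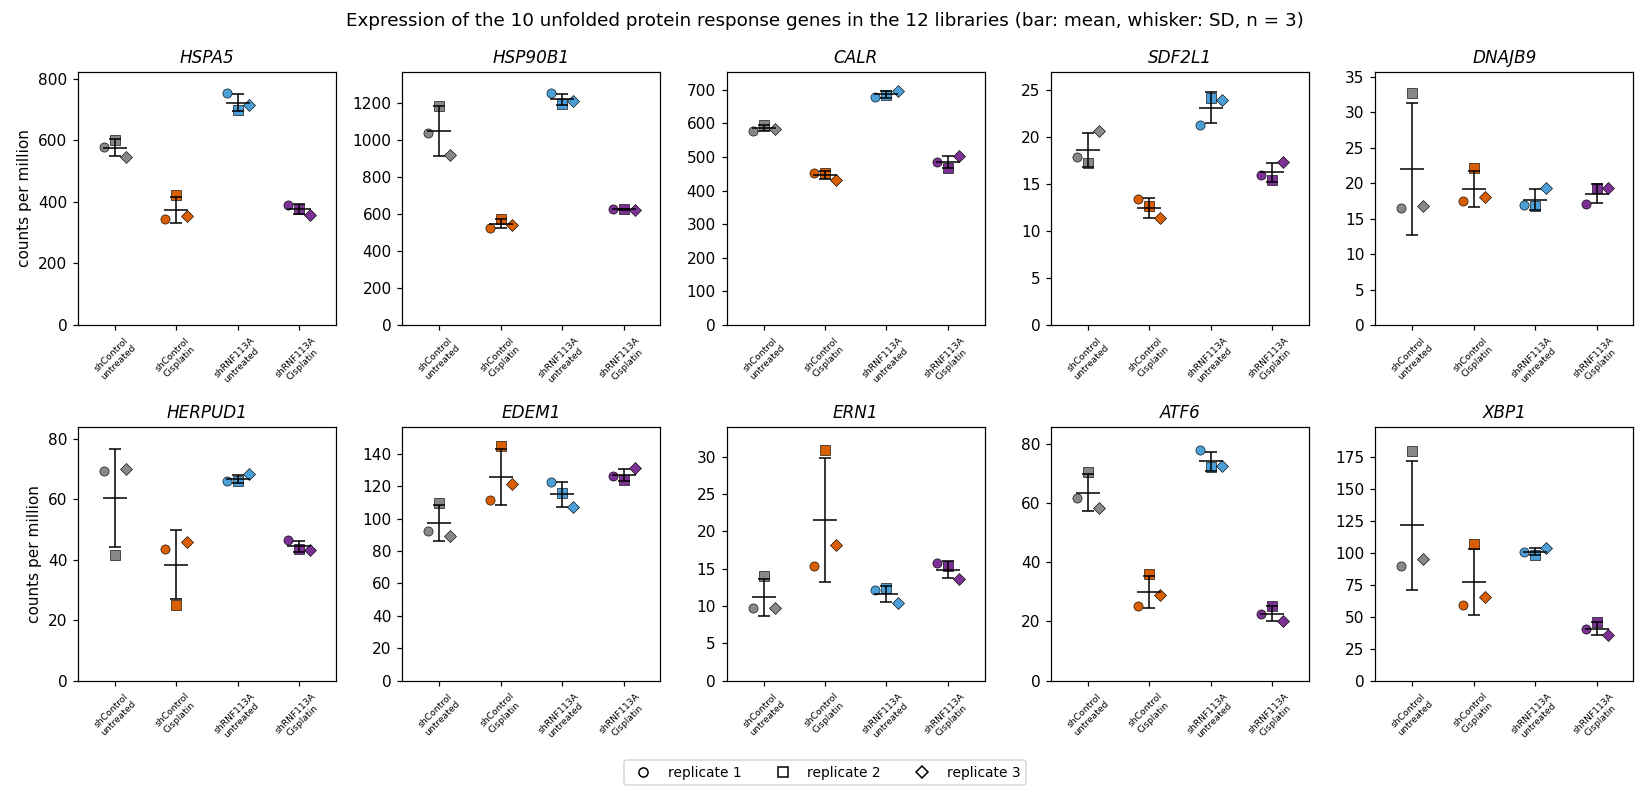
CPM (linear axis from 0, scaled separately for each gene) of the 10 genes in the 12 libraries, by group. Points are libraries with a marker for each replicate number, and bars and whiskers are the mean and SD of 3 libraries. HSPA5, HSP90B1, CALR, SDF2L1 and ATF6 are lower with Cisplatin in both cell populations. Of all tested genes 27.0% fell in shControl and 27.8% in shRNF113A cells. Replicate 2 of the shControl cells is the high point for XBP1, DNAJB9 and ERN1 and the low point for HERPUD1.

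The sensor and transcription factor genes moved in different directions. ATF6, which encodes the sensor cut in the Golgi, had 61.8, 70.4 and 58.3 CPM in untreated and 25.4, 36.0 and 28.8 CPM in treated shControl cells. It was the member with the largest fall there, 1.08 on the log2 scale (SE 0.13, edgeR adjusted p = 1.62e-05), or 2.11-fold. In shRNF113A cells it had 77.9, 72.2 and 72.4 CPM against 22.5, 25.2 and 20.2 CPM, a fall of 1.71 on the log2 scale (SE 0.13, edgeR adjusted p = 3.73e-07), or 3.28-fold. The treated libraries of ATF6 lay below every untreated library in both cell populations.

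XBP1, the target of IRE1, had 89.7, 179.9 and 95.2 CPM in untreated and 59.3, 107 and 65.5 CPM in treated shControl cells. Both libraries numbered 2 were high and the groups overlapped, but the treated library was lower than the untreated library of the same number in 3 of 3 pairs. The fall of 0.66 on the log2 scale was close to the threshold (SE 0.26, edgeR adjusted p = 0.0459). It was lost when any of 9 of the 12 libraries was left out, with a log2 change of -0.26 and an adjusted p of 0.26 without the untreated library 2, and also when library sizes replaced TMM (-0.57, adjusted p = 0.105). The log2 change was -0.57 with an adjusted p of 8.50e-05 when both shControl libraries numbered 2 were left out. XBP1 also passed in a fit of the shControl libraries alone with the replicate number as a block. In shRNF113A cells the libraries of XBP1 were close together, 101, 98.1 and 104 CPM untreated and 40.6, 45.8 and 35.7 CPM treated, and it fell by 1.31 on the log2 scale (SE 0.26, edgeR adjusted p = 9.45e-04), or 2.48-fold.

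ERN1, the gene of the IRE1 sensor, was the member that rose most. It had 9.73, 14.0 and 9.68 CPM in untreated and 15.3, 30.9 and 18.2 CPM in treated shControl cells, a rise of 0.95 on the log2 scale (SE 0.23, edgeR adjusted p = 0.00377). The groups were apart, but the treated library 2 was the highest by far, and without it the rise was 0.59 (adjusted p = 0.00927). In shRNF113A cells ERN1 had 12.1, 12.3 and 10.3 CPM untreated and 15.7, 15.3 and 13.6 CPM treated, and the difference did not pass (log2 change 0.36, edgeR adjusted p = 0.201). Without both shControl libraries numbered 2 the change was 0.35 with an adjusted p of 0.00526.

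The genes of ER-associated degradation and the remaining J-domain chaperone were mixed. HERPUD1, a membrane protein that assembles the degradation complex, had 69.3, 41.6 and 69.9 CPM in untreated and 43.6, 25.1 and 45.9 CPM in treated shControl cells. Library 2 was low in both groups and the groups overlapped, but within each of the 3 numbered pairs the treated library was the lower. The fall was 0.66 on the log2 scale (SE 0.22, edgeR adjusted p = 0.0209). Leaving out the untreated library 1 or 3 or the treated library 2 ended the call (adjusted p = 0.0747, 0.0793 and 0.0535), while without both libraries numbered 2 the log2 change was -0.64 with an adjusted p of 1.46e-06. HERPUD1 also passed in a fit of the shControl libraries alone with the replicate number as a block. In shRNF113A cells HERPUD1 had 65.8, 66.1 and 68.2 CPM against 46.5, 43.4 and 43.3 CPM (log2 change -0.59, SE 0.22, edgeR adjusted p = 0.0322). The groups did not overlap, yet the call was lost when any untreated library, or treated library 2 or 3, was left out (adjusted p = 0.0624 to 0.085).

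EDEM1, a lectin that delivers misfolded glycoproteins for degradation, had 92.5, 109.7 and 89.2 CPM in untreated and 111, 145 and 121 CPM in treated shControl cells. It rose by 0.37 on the log2 scale (SE 0.10, edgeR adjusted p = 0.00933), with the lowest treated library just above the highest untreated library. In shRNF113A cells it had 122, 116 and 107 CPM against 126, 124 and 131 CPM, a difference that did not pass (edgeR adjusted p = 0.261). DNAJB9, a J-domain partner of HSPA5 that also restrains IRE1, had 16.5, 32.7 and 16.8 CPM in untreated and 17.5, 22.2 and 18.1 CPM in treated shControl cells, which overlapped (edgeR adjusted p = 0.477). In shRNF113A cells it had 16.9, 16.8 and 19.3 CPM untreated and 17.0, 19.3 and 19.3 CPM treated (adjusted p = 0.806).

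In counts, 7 of the 10 members fell with Cisplatin in shControl cells, where 27.0% of all tested genes fell, and 2 rose, where 28.0% of all tested genes rose. A single member (ATF6) passed the test with a change of 2-fold or more, against 19.8% of all genes. The median log2 change was -0.60 over the members and -0.01 over all tested genes. In shRNF113A cells 7 of 10 fell, the background being 27.8%, and 0 rose, the background being 32.4% (edgeR, with an unadjusted p under 0.05 for 7 members, the 7 that fell, and 0 that rose by DESeq2). ATF6 and XBP1 were the 2 members past 2-fold there, against 23.1% of all genes. The median log2 change was -0.55 over the members and 0.06 over all genes. The count in shControl cells was 9 in the full data and 8 without any single library, because either XBP1 or HERPUD1 dropped out, and 9 without both shControl libraries numbered 2.

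**Figure D2:**
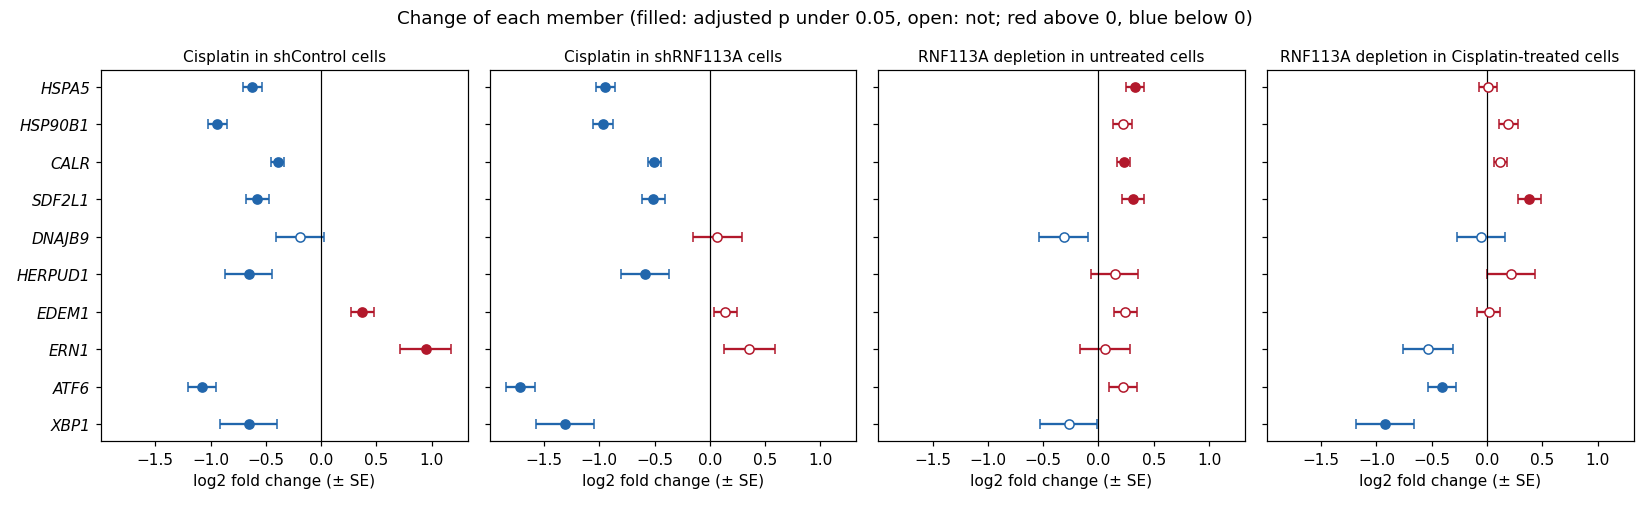
Log2 fold change (horizontal axis) with its SE for each of the 10 genes in the 4 comparisons, from the same edgeR fit. Filled points passed at an adjusted p under 0.05, red points lie above 0 and blue points below. With Cisplatin 7 genes lie to the left and pass in either cell population, whereas 3 pass to the right upon depletion in untreated cells.

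RNF113A depletion in untreated cells was accompanied by small rises of 3 of the 5 chaperone members. HSPA5 rose by 0.33 on the log2 scale (SE 0.08, edgeR adjusted p = 0.0126), a 1.26-fold difference, with the lowest shRNF113A library (698 CPM) above the highest shControl library (600.0 CPM). CALR rose by 0.23 (SE 0.06, edgeR adjusted p = 0.0148), from 586 ± 8.33 to 686 ± 10.2 CPM (SD, n = 3), again with no overlap. SDF2L1 rose by 0.31 (SE 0.10, edgeR adjusted p = 0.0389), from 18.6 ± 1.78 to 23.1 ± 1.63 CPM. These were 3 of 10 members, where 12.8% of all tested genes rose, and 0 members fell (edgeR and DESeq2, with an unadjusted p under 0.05 for 5 members, all higher), where 14.6% of all tested genes fell. The median log2 change was 0.22 over the members and 0.00 over all genes. HSP90B1 (1047 ± 134 and 1219 ± 31.3 CPM, log2 change 0.22, edgeR adjusted p = 0.0796), ATF6 (63.5 ± 6.27 and 74.2 ± 3.24 CPM, adjusted p = 0.201) and EDEM1 (adjusted p = 0.102) did not pass. Neither did DNAJB9, with means of 22.0 ± 9.28 and 17.7 ± 1.44 CPM (adjusted p = 0.313).

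The count of 3 depended on single libraries. The call of SDF2L1 was lost in 7 of 12 fits that left out a library (adjusted p = 0.0504 to 0.123), and that of HSPA5 without the untreated shRNF113A library 1 (log2 change 0.30, adjusted p = 0.0539). Without both shControl libraries numbered 2, 5 members rose: HSPA5 and CALR with HSP90B1 (log2 change 0.32, adjusted p = 0.00158), EDEM1 (0.34, adjusted p = 0.00122) and ATF6 (0.30, adjusted p = 0.0108), while SDF2L1 did not pass (0.26, adjusted p = 0.0531).

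Upon RNF113A depletion in Cisplatin-treated cells 3 members passed the test, XBP1 and ATF6 below 0 and SDF2L1 above 0. The mRNA of RNF113A itself did not pass between these groups (edgeR adjusted p = 0.233), so depletion here names the hairpin. XBP1 fell by 0.92 on the log2 scale (SE 0.26, edgeR adjusted p = 0.0138), from 59.3, 107 and 65.5 CPM to 40.6, 45.8 and 35.7 CPM, with no overlap. ATF6 fell by 0.41 (SE 0.13, edgeR adjusted p = 0.0219), and its highest shRNF113A library (25.2 CPM) lay just under its lowest shControl library (25.4 CPM). SDF2L1 rose by 0.38 (SE 0.10, edgeR adjusted p = 0.0111), from 12.5 ± 1.04 to 16.3 ± 1.03 CPM (SD, n = 3). Thus 1 of 10 members rose, where 21.1% of all tested genes rose, and 2 fell, where 21.8% of all tested genes fell. The median log2 change over the members was 0.01. ERN1 was lower by 0.53 on the log2 scale without passing (edgeR adjusted p = 0.0777). With the replicate number as a block shared by all groups ERN1 passed (log2 change -0.48, edgeR adjusted p = 0.0365), although same-numbered shControl and shRNF113A libraries hardly correlated.

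These calls also moved with single libraries. Without the treated shRNF113A library 3, XBP1 (log2 change -0.83, adjusted p = 0.0587) and ATF6 (-0.33, adjusted p = 0.0922) did not pass and 1 member was called. SDF2L1 did not pass without the treated shControl library 3 (0.26, adjusted p = 0.0909) or the treated shRNF113A library 1 (0.34, adjusted p = 0.0508). Without the untreated shControl library 2, 5 members were called, with ERN1 (-0.53, adjusted p = 0.0453) and HSP90B1 (0.19, adjusted p = 0.0294) in addition. The number was 4 without both shControl libraries numbered 2, with XBP1 at -0.62 (adjusted p = 3.05e-05) and ATF6 at -0.26 (adjusted p = 0.0263).

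Whether the response to Cisplatin itself differed between the cell populations was tested by the interaction. Of the 10 members, 0 passed (edgeR), where 4.25% of all tested genes did, and 2, ATF6 and HSPA5, had an unadjusted p under 0.05. ATF6 was nearest, with an interaction of -0.63 on the log2 scale (SE 0.18, edgeR adjusted p = 0.0659). It passed by DESeq2 (-0.66, adjusted p = 0.0124) and in edgeR with the replicate number as a block shared by all groups (-0.64, adjusted p = 0.0363). HSPA5 had an interaction of -0.32 (SE 0.12, edgeR adjusted p = 0.145) and XBP1 of -0.65 (SE 0.36, edgeR adjusted p = 0.332). Without both shControl libraries numbered 2, ATF6 (-0.56, adjusted p = 0.00753) and XBP1 (-0.74, adjusted p = 0.00129) passed, and without the untreated shControl library 2 alone they did so too (-0.71, adjusted p = 0.0276, and -1.05, adjusted p = 0.0293). ATF6 also passed without the treated shControl library 1 (-0.79, adjusted p = 0.0412) or the treated shRNF113A library 2 (-0.76, adjusted p = 0.0491). The call of both genes thus depended on which libraries were included.

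Genes differ in the length of DNA that has to be transcribed, and the members range from 2.04 kb (SDF2L1) to 198 kb (ATF6). Over all tested protein-coding genes the median log2 change with Cisplatin in shControl cells was 0.14 for spans under 10 kb (2624 genes), 0.16 for 10 to 30 kb (3737 genes), -0.00 for 30 to 100 kb (4373 genes) and -0.58 for 100 kb and over (2700 genes). In shRNF113A cells the same medians were 0.31, 0.26, -0.03 and -0.77. ATF6 is the single member in the longest class, and its fall lay inside that class: 32.7% of the genes of the class lay below it in shControl cells and 24.9% in shRNF113A cells. The 4 chaperone genes that fell are shorter and lie in classes whose median was above 0. HSPA5 (6.48 kb) had only 8.92% of its class below it in shControl cells and 3.28% in shRNF113A cells. HSP90B1 (23.5 kb) had 4.17% and 3.59% below it, and XBP1 (6.04 kb) had 8.35% and 1.49%. ERN1 (91.7 kb) had 91.6% of its class below it in shControl cells and 74.0% in shRNF113A cells. These percentages are a description of where the members stand, with no test.

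**Figure D3:**
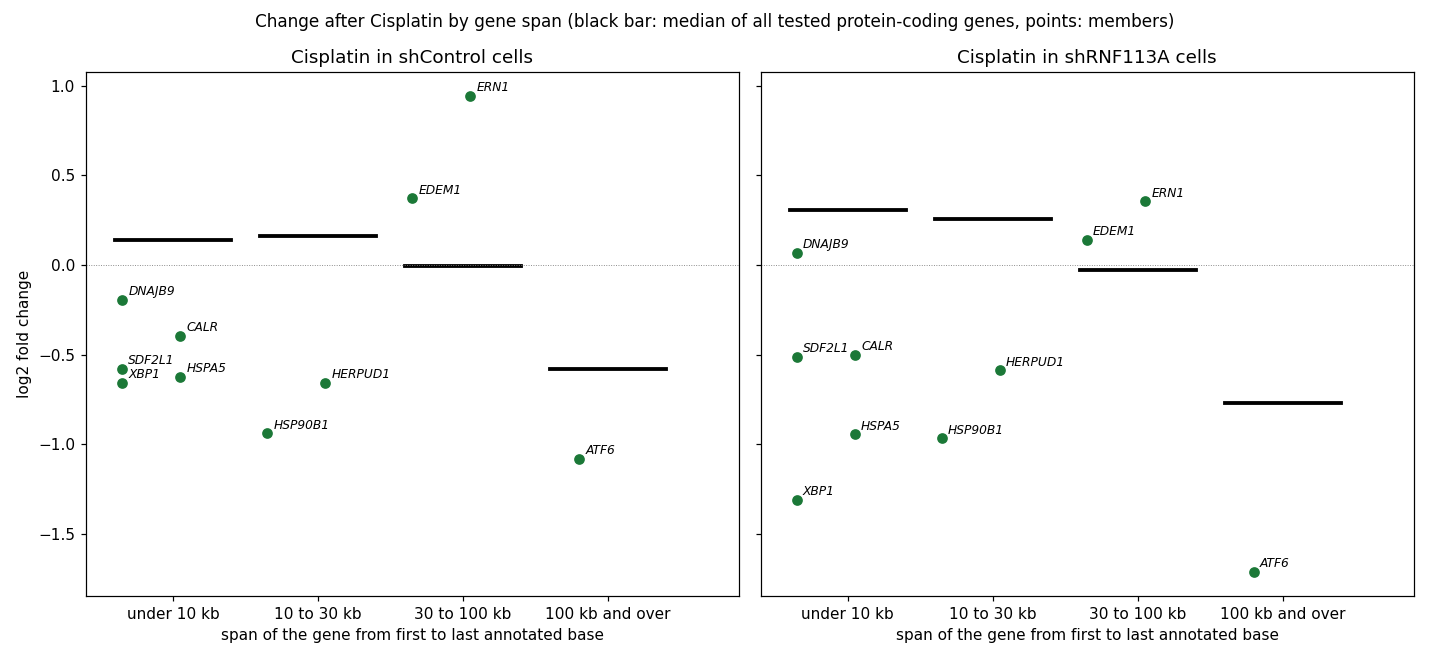
Log2 fold change with Cisplatin (vertical axis) by class of gene span, the distance from the first to the last annotated base (horizontal axis), in shControl and shRNF113A cells. Black bars are the medians of all tested protein-coding genes in each class and points are the 10 members. ATF6 sits below the median of the longest class, itself below 0, while HSPA5, HSP90B1, CALR, SDF2L1, HERPUD1 and XBP1 lie below medians that are above 0.

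Set beside the promoter elements printed above, the 6 members whose window held an ERSE or ERSE-II (HSPA5, XBP1, HSP90B1, CALR, HERPUD1 and SDF2L1) all fell in both Cisplatin comparisons, 6 of 6 each time. Of all tested genes 27.0% fell in shControl and 27.8% in shRNF113A cells. In shControl cells either XBP1 or HERPUD1 dropped out whichever library was left out. In shRNF113A cells HERPUD1 dropped out without some single libraries. Of the 4 members without either element 1 (ATF6) fell in each, and 2 (ERN1 and EDEM1) rose in shControl cells. Upon depletion in untreated cells the 3 members that rose were all among the 6 with an element. This split depended on the libraries. Without both shControl libraries numbered 2, EDEM1 and ATF6, which have no element, rose as well, and SDF2L1, which has one, did not pass. With so few genes, chosen as members of a single response, this is a description and no test was made.

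The neighbouring parts of the pathway were followed with lists of other genes. The PERK branch and ATF4 targets, 11 genes, were the list that rose in shControl cells: 8 rose and 1 fell with Cisplatin, with a median log2 change of 0.59. Of all tested genes 28.0% rose and 27.0% fell there. DDIT3 (CHOP), a factor that promotes cell death under prolonged stress, had 11.8, 8.94 and 11.4 CPM in untreated and 118, 205 and 134 CPM in treated shControl cells (log2 change 3.83, SE 0.24, edgeR adjusted p = 7.75e-08). ATF3, another stress-induced factor, had 11.2, 5.20 and 8.19 CPM against 100.05, 191 and 104 CPM (log2 change 4.01, SE 0.30, edgeR adjusted p = 3.24e-07). DDIT4, an inhibitor of mTORC1 signalling, was the gene that fell (log2 change -0.51, edgeR adjusted p = 0.00215). The mRNA of ATF4 itself, named here after its values were seen, did not pass (edgeR adjusted p = 0.0581).

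In shRNF113A cells the same list was split, with 6 genes that rose, 4 that fell and a median log2 change of 0.24. Of all tested genes 32.4% rose and 27.8% fell there. ATF3 had 7.62, 8.19 and 7.26 CPM untreated and 94.4, 91.0 and 114 CPM treated, a rise of 3.70 on the log2 scale (SE 0.29, edgeR adjusted p = 5.40e-07). SESN2, a stress-induced regulator of mTORC1, had 11.4, 10.6 and 11.8 CPM against 77.1, 69.4 and 75.5 CPM (log2 change 2.72, SE 0.18, edgeR adjusted p = 1.29e-07). TRIB3, a pseudokinase induced by ATF4 and DDIT3, fell there (119, 126 and 126 CPM against 76.1, 77.7 and 61.6 CPM, log2 change -0.78, SE 0.15, edgeR adjusted p = 6.64e-04), as did DDIT4 (log2 change -1.27, edgeR adjusted p = 1.61e-06) and ATF4 (log2 change -0.35, edgeR adjusted p = 0.00659). Between Cisplatin-treated cells 6 of the 11 genes were lower in shRNF113A cells and 0 higher, with a median of -0.40, where 21.8% of all tested genes were lower and 21.1% higher. DDIT3 fell by 2.21 on the log2 scale (SE 0.22, edgeR adjusted p = 2.52e-05), to 40.1, 35.5 and 23.4 CPM, and TRIB3 by 1.37 (SE 0.15, edgeR adjusted p = 4.88e-05). The interaction passed for 3 genes of this list (DDIT3, TRIB3 and DDIT4), all below 0, where 4.25% of all tested genes passed in either direction.

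The other ER chaperones and foldases, 20 genes, followed the members: 13 fell and 0 rose with Cisplatin in shControl cells (median log2 change -0.51), and 12 fell and 1 rose in shRNF113A cells (median -0.35). Of all tested genes 27.0% and 27.8% fell and 28.0% and 32.4% rose in the same order. PDIA6, a protein disulfide isomerase, had 687, 694 and 624 CPM in untreated and 395, 378 and 365 CPM in treated shControl cells (log2 change -0.82, SE 0.07, edgeR adjusted p = 1.15e-06). PDIA4, of the same family, fell by 0.80 (edgeR adjusted p = 2.05e-06) in shControl and by 1.01 (edgeR adjusted p = 2.79e-07) in shRNF113A cells. DNAJC10, an ER reductase with a J domain, had 231, 213 and 227 CPM against 121, 128 and 112 CPM in shRNF113A cells (log2 change -0.90, edgeR adjusted p = 4.13e-04). SDF2, the paralogue of SDF2L1, was the gene that rose there (log2 change 0.41, edgeR adjusted p = 0.00192).

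Upon depletion in Cisplatin-treated cells 6 of the 20 rose and 1 fell (median log2 change 0.20), beside 21.1% and 21.8% of all tested genes. ERO1A, an oxidase that regenerates disulfide isomerases, rose by 0.58 (SE 0.12, edgeR adjusted p = 0.00275) and CRELD2, an ER stress-induced protein, by 0.52 (SE 0.10, edgeR adjusted p = 0.00145), while UGGT1, the glycoprotein folding sensor, fell by 0.68 (SE 0.16, edgeR adjusted p = 0.00439). In untreated cells 2 rose, ERO1A (0.48, edgeR adjusted p = 0.0130) and PDIA4 (0.22, edgeR adjusted p = 0.0385), and ERO1B fell (log2 change -1.16, SE 0.22, edgeR adjusted p = 0.00225). Of all tested genes 12.8% rose and 14.6% fell in that comparison.

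Of the other sensors and transcription factors, 8 genes, 5 fell and 1 rose with Cisplatin in shControl cells and 7 fell and 1 rose in shRNF113A cells. The shares of all tested genes that fell were 27.0% and 27.8%, and those that rose 28.0% and 32.4%. CREB3L2, a membrane-bound factor related to ATF6, had 99.3, 107 and 83.1 CPM against 55.5, 52.5 and 53.8 CPM in shControl cells (log2 change -0.84, edgeR adjusted p = 5.20e-06). It was also lower upon depletion, with a log2 change of -0.80 in untreated (edgeR adjusted p = 4.49e-05) and -0.96 in Cisplatin-treated cells (edgeR adjusted p = 1.38e-05). CREB3, another factor of that family, was the gene that rose with Cisplatin in both (log2 change 0.31 and 0.56, edgeR adjusted p = 0.00311 and 3.09e-05). ATF6B, the paralogue of ATF6, rose upon depletion in untreated cells, from 48.7, 50.5 and 49.7 CPM to 76.4, 78.4 and 80.4 CPM (log2 change 0.66, edgeR adjusted p = 5.97e-05). CREB3L1 reached 2.55 there (edgeR adjusted p = 0.00730), from 0.111, 0.433 and 0.106 CPM to 1.32, 1.08 and 1.51 CPM, a change at a very low level.

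Of the other ER-associated degradation genes, 15 tested of 16, 4 fell and 1 rose with Cisplatin in shControl cells and 5 fell and 2 rose in shRNF113A cells (medians -0.15 and -0.08), where 27.0% and 27.8% of all tested genes fell and 28.0% and 32.4% rose. SEL1L, the adaptor of the HRD1 ligase, fell by 0.64 in shRNF113A cells (edgeR adjusted p = 1.08e-04), while SYVN1, the HRD1 ligase itself, rose upon depletion in untreated (0.47, edgeR adjusted p = 0.00133) and Cisplatin-treated cells (0.56, edgeR adjusted p = 2.76e-04). Of the translocon and signal peptidase genes, 15, the counts were 7 down and 1 up in shControl and 8 down and 2 up in shRNF113A cells. SEC61A1, the pore of the translocon, was the largest rise in both (318, 315 and 318 CPM against 608, 520.3 and 585 CPM in shControl cells, log2 change 0.85, edgeR adjusted p = 1.37e-06). Of the ER export genes and KDEL receptors, 9, 4 fell and 2 rose in shControl cells and 2 fell and 2 rose in shRNF113A cells. SEC31A, a coat protein of export vesicles, rose by 1.00 (edgeR adjusted p = 6.49e-06) and 0.63 (edgeR adjusted p = 2.35e-04). Over all these lists, 78 genes tested, 34 fell and 13 rose with Cisplatin in shControl cells, and 38 fell and 14 rose in shRNF113A cells, to be read against the same shares. Upon depletion in untreated cells 14 rose and 8 fell, where 12.8% and 14.6% of all tested genes did. In Cisplatin-treated cells 14 rose and 14 fell, where 21.1% and 21.8% of all tested genes did.

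**Figure D4:**
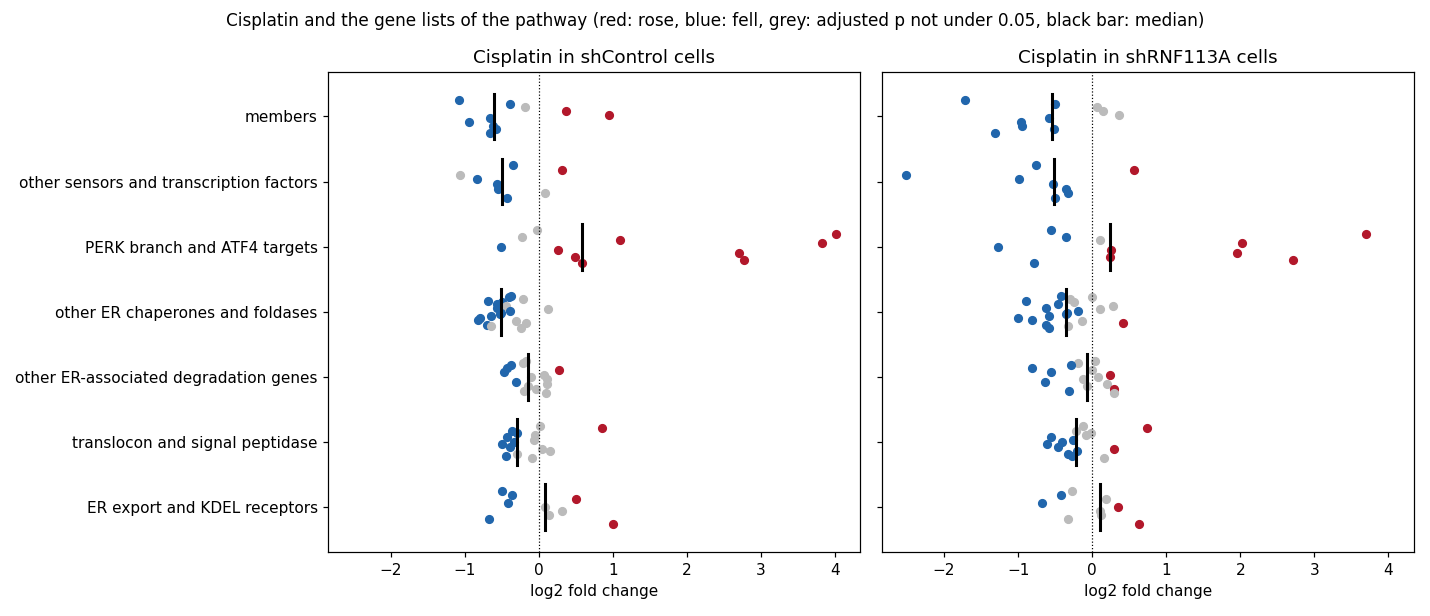
Log2 fold change with Cisplatin (horizontal axis) of each tested gene of the members and of the other lists (vertical axis), in shControl and shRNF113A cells. Red points rose and blue points fell at an adjusted p under 0.05, grey points did not pass, and black bars are list medians. The PERK branch and ATF4 targets lie mostly to the right (median 0.59 in shControl, 0.24 in shRNF113A cells), whereas the members and the other chaperones lie mostly to the left.

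Intronic reads were examined because RNF113A belongs to the spliceosome. The ratio of intronic to exonic reads of a gene was tested in 11488 genes, which include all 10 members, and it is given here as intronic reads per 100 exonic reads. A ratio can rise through more intronic reads or through fewer exonic reads, and the test does not tell these apart. Over all these genes the median ratio was higher upon depletion, by 0.47 on the log2 scale in untreated and by 0.96 in Cisplatin-treated cells, so each member is read against that background. In Cisplatin-treated cells the ratio of all 10 members rose upon depletion, where 81.5% of all genes rose, by 0.75 to 1.64 on the log2 scale with a median of 1.18. In untreated cells 4 of 10 rose upon depletion (HSPA5, CALR, DNAJB9 and XBP1), where 28.2% of all genes rose, with a median of 0.50 over the members. The members lay above the median of all genes in 8 and 7 of 10 cases, respectively.

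HSPA5 had the lowest mean ratio of the members in each group, with 0.31, 0.254 and 0.316 in untreated and 0.435, 0.36 and 0.631 in treated shControl cells. In shRNF113A cells it was 0.428, 0.5 and 0.481 untreated and 1.08, 1.02 and 1.25 treated, and the treated libraries were above all others. The log2 change upon depletion was 0.68 in untreated (SE 0.21, edgeR adjusted p = 0.0217) and 1.24 in Cisplatin-treated cells (SE 0.20, edgeR adjusted p = 2.56e-05). Unscaled, HSPA5 had 64, 59 and 64 intronic reads in untreated and 56, 62 and 103 in treated shControl cells. Its exonic reads there were 20650, 23185 and 20265 against 12878, 17243 and 16320. For ATF6 the intronic reads themselves were higher with Cisplatin in these cells (74, 94 and 69 against 108, 145 and 147). ATF6, the longest member, had 3.33, 3.43 and 3.17 intronic reads per 100 exonic in untreated and 11.4, 9.97 and 11.1 in treated shControl cells. It had 4.04, 4.54 and 5.28 in untreated and 20.8, 14.0 and 20.7 in treated shRNF113A cells. Its ratio rose with Cisplatin by 1.70 on the log2 scale in shControl (SE 0.21, edgeR adjusted p = 2.02e-06) and by 1.98 in shRNF113A cells (SE 0.20, edgeR adjusted p = 5.54e-08), above 97.0% and 94.1% of all genes. XBP1 differed, with 2.17, 1.41 and 2.33 in untreated and 1.61, 1.43 and 2.00 in treated shControl cells, which overlapped, and 2.99, 3.21 and 3.11 against 3.61, 4.48 and 4.25 in shRNF113A cells. Its change upon depletion in Cisplatin-treated cells was 1.30 (SE 0.24, edgeR adjusted p = 6.62e-05).

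With Cisplatin the ratio of 3 of 10 members rose in shControl cells (HSPA5, CALR and ATF6), where 17.5% of all genes rose, with medians of 0.28 over the members and 0.29 over all genes. In shRNF113A cells 7 of 10 rose, where 64.6% of all genes rose, with medians of 1.08 and 0.75. EDEM1 (edgeR adjusted p = 0.0551), XBP1 (adjusted p = 0.115) and ERN1 (adjusted p = 0.21) did not pass. The counts behind the ratios were small for DNAJB9, with 2 to 20 intronic reads per library, and for SDF2L1, with 3 to 11, and reached 554 for HSP90B1. DNAJB9 overlaps PNPLA8 and THAP5 and HSP90B1 overlaps C12orf73, all on the opposite strand, and the strand setting of these exonic and genic counts is not given in the sources used here, so the ratios of both genes are uncertain. The exonic reads of ERN1 were well above its sense-strand counts, with 775, 1210 and 791 against 352, 550 and 365 in untreated shControl cells. Its RPKM and ratio are therefore uncertain too, and the cause was not tested.

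The smaller counts depended on single libraries. The count with Cisplatin in shControl cells was 1 (ATF6) without untreated library 1, 2 or 3 and 5 without treated library 2 of these cells. Upon depletion in untreated cells it was 0 without library 2 of either group, 1 without untreated shRNF113A library 1 or 3, 2 without untreated shControl library 1 or 3, and 7 without treated shControl library 2 or 3. Without both shControl libraries numbered 2 the counts were 4 and 9 with Cisplatin in shControl and shRNF113A cells, and 5 and 10 upon depletion in untreated and Cisplatin-treated cells. The count of 10 upon depletion in Cisplatin-treated cells remained 10 whichever library was left out.

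**Figure D5:**
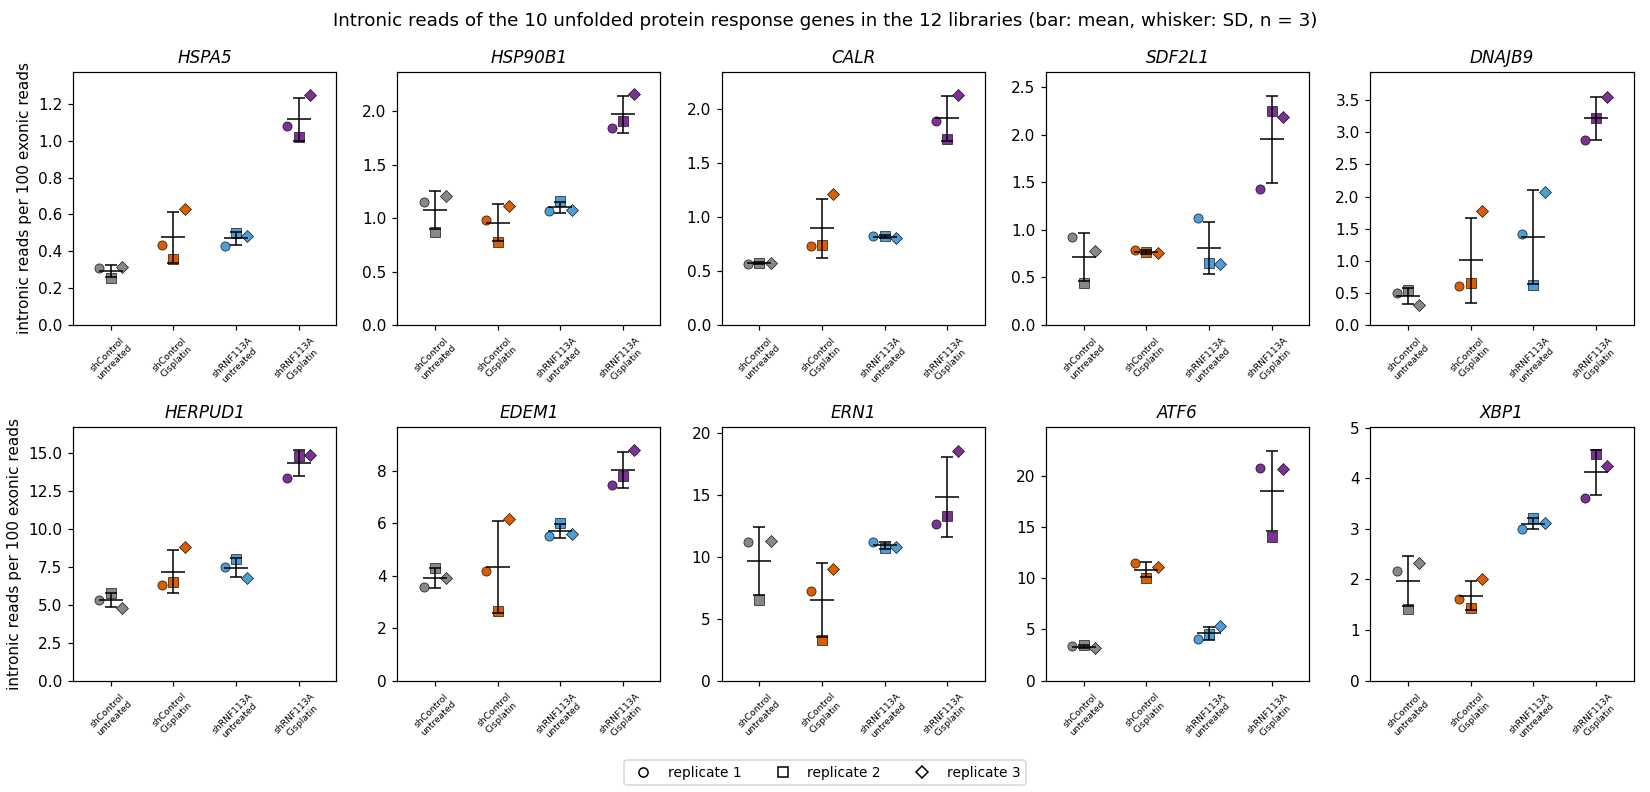
Intronic reads per 100 exonic reads (linear axis from 0, scaled separately for each gene) of the 10 genes in the 12 libraries, by group. Points are libraries with a marker for each replicate number, and bars and whiskers are the mean and SD of 3 libraries. The means of all 10 genes are highest in Cisplatin-treated shRNF113A cells, for example 1.12 ± 0.116 for HSPA5 and 18.5 ± 3.89 for ATF6. The ratios of all 10 genes passed the test between the Cisplatin-treated groups, where 81.5% of all genes rose.

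Splicing of the members was read from inclusion and skipping reads of exon skipping, alternative splice sites, mutually exclusive exons and retained introns. At least 10 reads in every library of a comparison were found for 42 events of 8 members, which gave 125 tests over the 4 comparisons, and 11 of these had an unadjusted p under 0.05. After adjustment 1 passed, by edgeR with Benjamini-Hochberg adjustment within its category, upon depletion in Cisplatin-treated cells. The shares of events that passed over all genes and categories were 0.529% (Cisplatin in shControl), 2.61% (Cisplatin in shRNF113A), 0.906% (depletion, untreated) and 2.32% (depletion, Cisplatin-treated), and in the last 921 of 3541 retained introns passed. DNAJB9 and SDF2L1 had 0 events. The XBP1 event in the tables, 1 pair of alternative splice sites 15 bases apart, is not the intron removed by IRE1, which was not analysed here.

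The event that passed was a retained intron of HSP90B1 (hg19 chr12:104336575-104336851, plus strand, 277 bases), which lies over no other protein-coding gene. Its sequence is printed because it is the 1 retained intron of the members that could be tested, and capitals mark the first and last pair of bases, the usual GT and AG of an intron.
HSP90B1 retained intron: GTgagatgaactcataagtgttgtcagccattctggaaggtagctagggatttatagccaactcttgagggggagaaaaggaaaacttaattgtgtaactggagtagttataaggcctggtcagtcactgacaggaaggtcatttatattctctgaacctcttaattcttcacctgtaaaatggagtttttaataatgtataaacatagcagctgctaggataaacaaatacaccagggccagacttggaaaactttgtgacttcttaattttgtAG
In Cisplatin-treated shControl cells 6, 12 and 14 reads supported retention beside 1576, 1875 and 1919 reads that skipped the intron, and in Cisplatin-treated shRNF113A cells 12, 21 and 20 stood beside 1432, 1544 and 1250. After correction for the lengths of both forms the intron was retained in 0.0785%, 0.132% and 0.150% of transcripts against 0.173%, 0.280% and 0.329%. The log2 change of the odds was 1.08 with an adjusted p of 0.048 (edgeR), and all 3 shRNF113A libraries lay above the shControl libraries. In untreated cells the values were 0.131% to 0.184% in shControl and 0.112% to 0.194% in shRNF113A cells. The call was lost with a minimum of 1 read per event (adjusted p = 0.0509) and in 5 of 6 fits that left out a library (adjusted p = 0.0549 to 0.216). Intervals from these reads would cover counting error only, since the reads carry no molecular identifiers.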

How the data were processed

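The 12 libraries were made with a stranded poly(A) kit and sequenced as paired reads. Per the labels and the study's methods, the authors aligned the reads to hg19 with STAR 2.5.2b and deposited raw read counts per gene, of which the column for the strand of the gene was used. The authors also deposited HTSeq counts over exons and over whole genes of protein-coding genes, whose strand setting is not given in the sources used here, and rMATS tables of inclusion and skipping reads. Further names in the submitters' processing notes are bcl2fastq 2.17, cutadapt, Bowtie2, Cufflinks and Cuffdiff. The p-values, false discovery rates and inclusion differences in the rMATS tables were not used, and neither was the assembled transcript annotation.

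Groups were taken from the sample labels. The members and gene lists were chosen with earlier results of these data known. The named genes were all members, RNF113A and, from each other list and comparison, the 2 genes with the largest rise and the 2 with the largest fall past an adjusted p of 0.05, with the 5 genes most like HSPA5.

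Expression was tested with edgeR 4.0.16 (quasi-likelihood test, TMM, filter on low counts, R 4.3.3) in 1 fit of all 4 groups without a block, with p-values adjusted by Benjamini-Hochberg over all genes tested. Intronic reads were the whole-gene count minus the exonic count, and the change of intronic against exonic reads was tested in edgeR with both counts of a library in the same fit, for genes with at least 1 read of each in every library. Splicing was tested likewise on inclusion and skipping reads. CPM were TMM-scaled, and RPKM used the merged exon length and the exonic total. Between 14.0% and 22.6% of read pairs were assigned to no gene, and these stayed out of library sizes. All counts cover counting error only, and the total per library limits the precision of low genes.

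Tests were checked on simulated data. For Cisplatin in shControl cells, 191 of 200 changed genes were called and 12 others among 15128 genes. For the ratio upon depletion in Cisplatin-treated cells, 172 of 200 were called and 8 others among 11488 genes. For splicing in the same comparison, 198 of 200 were called and 8 others among 3485 events. The simulated expression and ratio counts had the same spread for every gene, and the simulated splicing reads had none between libraries beyond counting error. The changed splicing events were retained introns with many reads and intermediate inclusion. The check therefore does not cover a rarely retained intron with few reads, such as that of HSP90B1.

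Replicate numbers are shared by the groups. The deviations of same-numbered libraries correlated, over 8445 genes, at 0.618, 0.72 and 0.415 between untreated and Cisplatin-treated shControl cells, at 0.366, -0.12 and 0.268 in shRNF113A cells, at 0.1, -0.0063 and 0.121 between untreated and at -0.174, 0.0524 and -0.0825 between Cisplatin-treated shControl and shRNF113A cells. The numbers thus pair the libraries in the shControl cells, from the data and not from the labels. The p-values of the main fit do not use this pairing. Alternatives were DESeq2 1.42.0, library-size scaling, other filters, an additive model, the replicate block, and leaving out each library. The replicate block gives each number the same effect in all 4 groups, although same-numbered shControl and shRNF113A libraries hardly correlated. Leaving out both shControl libraries numbered 2 was chosen after seeing the data. So was an edgeR fit of the shControl libraries alone with the replicate number as a block. That fit called 9110 of 14719 genes with Cisplatin, beside 8450 of 15352 in the main fit, and kept the calls of XBP1 and HERPUD1.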

Additional observations from a re-analysis of the deposited data

Results flagged for a closer look

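Among the 78 tested genes of the other lists, the response to Cisplatin differed between shControl and shRNF113A cells, by the interaction in edgeR's quasi-likelihood fit with Benjamini-Hochberg adjustment, for 5 genes. Of all tested genes 4.25% passed. DDIT3 had an interaction of -1.81 on the log2 scale (SE 0.31, adjusted p = 0.0125), with a rise of 3.83 in shControl and of 2.02 in shRNF113A cells. TRIB3 had an interaction of -1.37 (SE 0.21, adjusted p = 0.00979), with a rise in shControl and a fall in shRNF113A cells. DDIT4 had an interaction of -0.76 (SE 0.16, adjusted p = 0.0243). ATF6B had an interaction of -0.42 (SE 0.10, adjusted p = 0.0433). SDF2 was the gene with an interaction above 0, at 0.58 (SE 0.13, adjusted p = 0.0294). Among 19 refits each, DDIT3 and TRIB3 passed in all, while the call was lost in 5 for DDIT4, 12 for ATF6B and 8 for SDF2.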

How the results depend on the processing

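Counts of members called changed as follows when a library was left out. For expression they ranged from 8 to 8 (9 in the full data) with Cisplatin in shControl cells, 6 to 7 (7) in shRNF113A cells, 2 to 4 (3) upon depletion in untreated and 1 to 5 (3) in Cisplatin-treated cells, and 0 to 2 (0) for the interaction. For the intronic ratio they ranged from 1 to 5 (3), 6 to 8 (7), 0 to 7 (4) and 10 to 10 (10), in the same order without the interaction. For splicing events they ranged from 0 to 0 (0), 0 to 1 (0), 0 to 0 (0) and 0 to 1 (1), and the last was 0 with a minimum of 1 read per library. Without both shControl libraries numbered 2, 5 members were called upon depletion in untreated cells and 2 by the interaction, which called 1 by DESeq2 and 1 with the replicate block. The replicate block changed no other expression call of a member than those of ATF6 and ERN1 given above. No paired analysis was possible for the splicing events because the order of the libraries within the tables is not named.

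Upon depletion in untreated cells some values changed sign. ATF6 went from 0.22 to -0.085 and DDIT4 from 0.37 to -0.0043 in an additive model, XBP1 went from -0.27 to 0.12 without both shControl libraries numbered 2, with values of -0.45 to 0.12 when a single library was left out, and the HSP90B1 retained intron ranged from -0.25 to 0.16. Over 148 single results, 2796 refits gave 2568 values on the same side of the threshold and in the same direction, 177 that lost and 45 that gained a call, and 6 that changed sign. These leave out the member results that no fit called, 17 for expression and 8 for the ratio, of which 13 and 5 changed sign in some refit. The cause was not tested.

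Counts over all genes moved by more than 1.5 times for the interaction (652 genes, 1390 by DESeq2, 2627 without both libraries, 171 to 1547 without a single library), for depletion in untreated cells (4207 genes, 7289 in the additive model, 6469 without both, 2682 without the untreated shRNF113A library 2) and for the ratio with Cisplatin in shControl cells (2146 genes, 3838 without both, 1315 to 4841) and upon depletion in untreated cells (3260 genes, 428 to 5333). Few intronic reads limit DNAJB9 and SDF2L1, whose ratios drop out at a minimum of 10 reads.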

Other observations

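Across the 12 libraries, the genes whose log2 CPM followed that of HSPA5 most closely among 9779 genes that averaged 10 CPM or more were SMAD2 (Pearson r = 0.993), a transducer of TGF-beta signals, ITGB5 (0.988), an integrin subunit, SLC44A1 (0.984), a choline transporter, ASCC1 (0.984) and ST7 (0.983). These values are a description over libraries that fall into 4 groups. SMAD2 had 141 ± 2.86 CPM (SD, n = 3) in untreated and 79.0 ± 9.18 CPM in Cisplatin-treated shControl cells, and 187 ± 10.1 and 86.2 ± 7.39 CPM in shRNF113A cells. ITGB5 had 435 ± 24.9, 179 ± 25.0, 584 ± 24.8 and 174 ± 12.6 CPM in the same order. Among the members, HSP90B1 (0.974), CALR (0.961) and ATF6 (0.961) were nearest to HSPA5, followed by SDF2L1 (0.837), XBP1 (0.729) and HERPUD1 (0.65), while EDEM1 (-0.419) and ERN1 (-0.563) had values below 0.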
